A study of Mus musculus with 4 samples.

Results

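The Ly6 genes described here are Ly6a, Ly6c1, Ly6c2, Ly6d, Ly6e and Ly6i, 6 of the 22565 genes in the table. They were taken by symbol as expressed members of the Ly6 cluster on mouse chromosome 15, and the set was selected on Ly6i, whose FPKM was low in both libraries labelled knockout (KO). FPKM is a level in sequenced fragments, scaled to transcript length and to the library's total. RNA came from alveolar epithelial type II (AT2) cells, which make surfactant in the lung alveolus, sorted from lungs of 6-month-old untreated mice. The KO group holds 2 libraries, labelled as knockouts of Fbxo45, the gene of an F-box protein that picks targets for ubiquitin attachment. The growth protocol has Fbxo45-cKO mice, while for KO replicate 2 the genotype reads Fbxo46, and the sources used here give no promoter or Cre line for the deletion. The other group holds 2 libraries of wild type (WT) AT2 cells. Whether the 2 libraries within a group are from different mice is not stated, and p-values therefore measure only the spread of these libraries, which could be technical.

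Ly6 proteins are small, cysteine-rich proteins that mostly sit on the outer cell surface, held there by a lipid (GPI) anchor. They share the fold of the uPAR receptor and of snake neurotoxins, and several are known as markers used in cell sorting and as genes induced by interferon. Ly6a is the stem cell antigen Sca-1, which is also found on endothelial and T cells. Ly6c1 and Ly6c2 together make up the Ly6C antigen of inflammatory monocytes and endothelial cells. Ly6e is broadly made and affects the entry of some viruses, Ly6d marks B cell progenitors and some epithelia, and Ly6i is a close relative of Ly6a.

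Because these genes arose as copies of each other, their coding sequences are shown first, to show where reads can and cannot tell the members apart. The sequences are from GENCODE M21 transcripts (GRCm38), coding bases 1 to 300 counted from the start codon and read along the gene. In the first pair, capitals mark the bases that differ between Ly6c1 (coding span chr15:75045402-75048511, minus strand) and Ly6c2 (chr15:75108543-75111667, minus strand).
Ly6c1: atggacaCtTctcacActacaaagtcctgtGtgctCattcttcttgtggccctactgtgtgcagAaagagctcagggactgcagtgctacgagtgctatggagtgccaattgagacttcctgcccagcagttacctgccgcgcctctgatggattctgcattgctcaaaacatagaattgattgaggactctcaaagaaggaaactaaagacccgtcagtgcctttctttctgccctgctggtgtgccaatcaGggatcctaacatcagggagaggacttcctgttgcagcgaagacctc
Ly6c2: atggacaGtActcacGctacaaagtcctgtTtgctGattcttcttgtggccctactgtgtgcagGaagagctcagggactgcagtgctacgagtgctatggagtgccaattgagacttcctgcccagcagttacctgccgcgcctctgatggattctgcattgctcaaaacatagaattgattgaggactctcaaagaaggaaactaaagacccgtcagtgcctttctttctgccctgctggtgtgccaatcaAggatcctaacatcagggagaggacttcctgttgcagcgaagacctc
In the second pair, capitals mark the bases that differ between Ly6i (chr15:74979914-74983059, minus strand) and Ly6a (chr15:74995262-74997604, minus strand).
Ly6i: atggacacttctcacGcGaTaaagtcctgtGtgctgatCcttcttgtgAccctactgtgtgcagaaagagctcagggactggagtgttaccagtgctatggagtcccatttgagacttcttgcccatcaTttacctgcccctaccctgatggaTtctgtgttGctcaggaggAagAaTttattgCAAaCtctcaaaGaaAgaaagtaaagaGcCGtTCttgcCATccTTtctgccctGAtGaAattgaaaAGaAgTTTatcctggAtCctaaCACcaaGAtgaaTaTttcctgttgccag
Ly6a: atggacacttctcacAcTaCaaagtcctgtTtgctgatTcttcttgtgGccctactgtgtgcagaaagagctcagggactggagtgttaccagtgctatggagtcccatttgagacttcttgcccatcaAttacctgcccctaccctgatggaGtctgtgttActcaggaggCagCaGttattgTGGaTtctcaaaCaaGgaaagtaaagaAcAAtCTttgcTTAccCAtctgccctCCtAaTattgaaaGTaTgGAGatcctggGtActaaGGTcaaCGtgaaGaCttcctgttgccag

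Ly6c1 and Ly6c2 differ at 9 of 396 coding bases, an identity of 97.7%, and their transcripts share an exact stretch of 188 bases. Ly6i and Ly6a differ at 55 of 405 coding bases, an identity of 86.4%, and their longest exact shared stretch is 80 bases. Ly6e and Ly6d stand apart, with identities between 45.7% and 52.2% to every other member and no exact shared stretch above 13 bases. Of the 100-base stretches in all annotated transcripts of a member, 10.1% of Ly6c1, 5.81% of Ly6c2 and 1.45% of Ly6a also occur in another gene, and 0% of Ly6d, Ly6e and Ly6i do. The values of Ly6c1 and Ly6c2 are therefore uncertain as separate values, since reads from the shared part can be counted for either gene, and the sources used here do not say how such reads were handled.

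Facts of the whole series that bear on these genes are few. Fragments recovered from the deposited counts sum to 9507432 and 7066424 in KO replicates 1 and 2, against 4167114 and 8200179 in WT replicates 1 and 2. Fbxo45, the targeted gene, stood at 4.41 and 7.58 FPKM in KO replicates 1 and 2, against 4.6 and 5.91 FPKM in WT replicates 1 and 2. Fbxo46 stood at 3.82 and 4.8 FPKM in KO replicates 1 and 2, against 4.13 and 3.79 FPKM in WT, so KO replicate 2 was the highest library for both genes. The level of Fbxo45 goes against the label, at least over the gene as a whole, and KO here always means a library labelled KO. The 11 AT2 markers summed to 82996 and 117591 FPKM in KO replicates 1 and 2, against 131462 and 125182 FPKM in WT. Most of this sum is Sftpc, at 54458 and 87684 FPKM in KO replicates 1 and 2, against 101544 and 94984 FPKM in WT. The other 10 markers summed to 28539 and 29907 FPKM in KO, against 29918 and 30198 FPKM in WT. Of the 11 markers, 6 had a log2 difference above 0 and 5 below, with a median of 0.013. The KO pair was wholly under the WT pair in 4 and wholly above in 1, where all tested genes gave 15.1% and 20%. The part of these differences in the Ly6 values was not tested. Log2 values of the KO-labelled libraries correlated at 0.905 with each other, the lowest of all pairs, against 0.971 for the WT pair.

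For each of the 6 Ly6 genes, all KO-labelled values lay under all WT values, and none of the 4 tested here, Ly6a, Ly6c1, Ly6c2 and Ly6e, passed the test across all genes. Ly6i was the extreme case at 0.104 of the WT mean, Ly6a, Ly6c1, Ly6c2 and Ly6d lay between 0.39 and 0.618 of the WT mean, and Ly6e, the most abundant, lay at 0.718. In bulk RNA, fewer cells of a type and less RNA per cell cannot be told apart. Of 11055 tested genes, 15.1% had the KO pair wholly under the WT pair and 20% had it wholly above. A log2 difference below 0 was found in 45.9% of tested genes and in 6 of the 6 Ly6 genes, whose median was -0.84 against 0.035 over all tested genes. Nothing is read from these counts, because the low KO values of Ly6i are what brought the cluster to attention and Ly6d passed the filter only through WT. With limma on log2(FPKM + 1), 0 of 11055 genes had an adjusted p under 0.05 (0%), and 535 had an unadjusted p under 0.05.

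**Figure D1:**
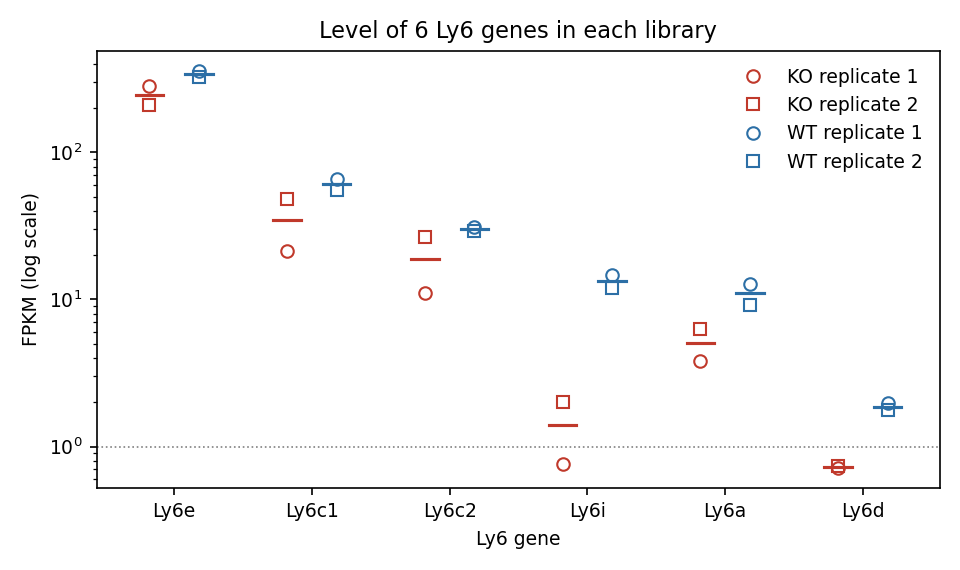
FPKM on a log axis for each Ly6 gene in KO replicates 1 and 2 (red circle and square) and WT replicates 1 and 2 (blue circle and square), with lines at the group means and a dotted line at 1 FPKM. KO-labelled points lie below WT points for every gene, and the gap is widest for Ly6i, at 0.759 and 2.02 FPKM in KO against 14.8 and 11.9 FPKM in WT.

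Ly6i (ENSMUSG00000022586, mm10 chromosome 15, 74979812 to 74983430, minus strand) had levels of 0.759 and 2.02 FPKM in KO replicates 1 and 2, against 14.8 and 11.9 FPKM in WT replicates 1 and 2. The gap of 9.88 FPKM between the groups exceeded the ranges within them, which were 1.26 FPKM in KO and 2.87 FPKM in WT. The group means were 1.39 ± 0.892 FPKM in KO and 13.3 ± 2.03 FPKM in WT (SD, n = 2 each), a ratio of 0.104. Only 11 of the tested genes, Ly6i included, had a log2 difference of -2.63 or lower. These are the values that chose Ly6i, so they carry no test.

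The fragments behind Ly6i are few, and they belong to the same values that chose it. Exactly 7 fragments were recovered in each KO-labelled library, against 33 and 55 in WT replicates 1 and 2. As counts per 1000000 fragments of the library (CPM) this is 0.736 (exact binomial 95% interval 0.296 to 1.52) and 0.991 (0.398 to 2.04) in KO replicates 1 and 2. In WT replicates 1 and 2 it is 7.92 (5.45 to 11.1) and 6.71 (5.05 to 8.73). The intervals of the KO-labelled libraries overlap each other. FPKM sets the KO-labelled libraries further apart than their fragments do: 1 CPM of Ly6i was worth 1.03 FPKM in KO replicate 1, 2.04 FPKM in KO replicate 2, and 1.86 and 1.77 FPKM in WT. Intervals cover counting error only.

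Ly6a, the neighbour of Ly6i, was at 3.83 and 6.27 FPKM in KO replicates 1 and 2, against 12.8 and 9.14 FPKM in WT replicates 1 and 2. All KO-labelled values were thus below WT, though the gap of 2.87 FPKM was no wider than the range of 3.69 FPKM within WT. Its means were 5.05 ± 1.72 FPKM in KO and 11 ± 2.61 FPKM in WT (SD, n = 2 each), with a log2 difference of -0.999 (SE 0.319, limma unadjusted p = 0.0208, adjusted p = 0.9475). Of the 4 pairs of a KO and a WT library, 3 had counting intervals apart. The exception was KO replicate 2, at 4.53 CPM (3.1 to 6.39), with WT replicate 2, at 7.07 CPM (5.37 to 9.14).

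In WT, the FPKM ranges of Ly6i and Ly6a overlapped, with Ly6i at 1.15 and 1.3 times the FPKM of Ly6a in replicates 1 and 2. In the KO-labelled libraries that ratio was 0.198 and 0.323. By fragments, not scaled to length, the ratio of Ly6i to Ly6a was 0.214 and 0.219 in KO replicates 1 and 2, against 0.805 and 0.948 in WT, so Ly6i had fewer fragments than Ly6a in every library and their order in WT depends on the scale. The low KO values of Ly6i enter this ratio, which is a description. The order of the other members by FPKM was the same in all 4 libraries, with Ly6e highest, then Ly6c1 and Ly6c2, and Ly6d lowest. Ly6c2 was below Ly6c1 within each library, although in KO the ranges of both genes overlap across libraries. The WT levels of Ly6i and Ly6a do not differ beyond their spread.

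Ly6c1 and Ly6c2 had the same profile over the libraries. Ly6c1 was at 21.4 and 48 FPKM in KO replicates 1 and 2, against 65.4 and 55.9 FPKM in WT replicates 1 and 2. Ly6c2 was at 11 and 26.4 FPKM in KO replicates 1 and 2, against 31.2 and 29.4 FPKM in WT replicates 1 and 2. In both genes KO replicate 1 was far below the rest, while KO replicate 2 lay just under the WT values. The log2 difference was -0.89 for Ly6c1 (SE 0.383) and -0.78 for Ly6c2 (SE 0.4), with a limma adjusted p of 0.9475 for each.

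The difference in the Ly6c genes rested on KO replicate 1. Without it, the log2 difference was -0.33 for Ly6c1 and -0.19 for Ly6c2. Without KO replicate 2, it was -1.45 for Ly6c1 and -1.38 for Ly6c2, and each of these fits holds a single KO library. By fragments, KO replicate 2 held 37.1 CPM of Ly6c1 (32.7 to 41.9) and WT replicate 2 held 45.2 CPM (40.8 to 50.1), which overlap, while the other 3 pairs of a KO and a WT library were apart. For Ly6c2, KO replicate 2 overlapped both WT libraries and KO replicate 1 neither. The FPKM ratio of Ly6c2 to Ly6c1 was 0.515 and 0.551 in KO replicates 1 and 2 and 0.477 and 0.526 in WT, where the groups overlap, and the reads both genes share enter that ratio.

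**Figure D2:**
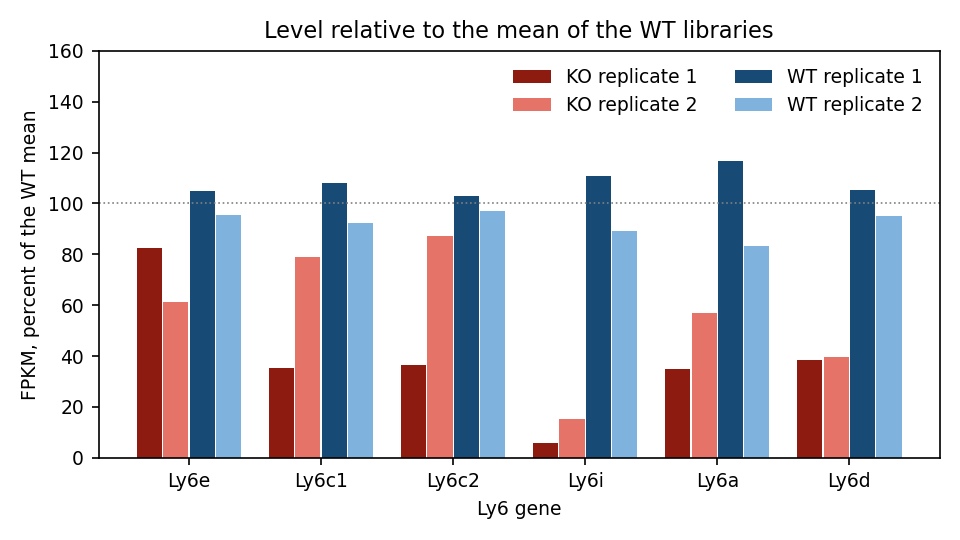
FPKM of each Ly6 gene in each library as a percent of the mean of the WT libraries, with KO replicates in red and WT replicates in blue. KO replicate 1 is the lower KO library for Ly6c1, Ly6c2, Ly6i and Ly6a (5.69% to 36.4%), and KO replicate 2 is the lower one for Ly6e (61.2% against 82.4%).

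Ly6e, the most abundant member, showed the opposite order of the KO-labelled libraries. It was at 283 and 210 FPKM in KO replicates 1 and 2, against 360 and 327 FPKM in WT replicates 1 and 2. The means were 247 ± 51.4 FPKM in KO and 344 ± 23 FPKM in WT (SD, n = 2 each), a log2 difference of -0.49 with SE 0.227 (limma adjusted p = 0.9475). At least 3393 fragments stood behind each value, so counting error was small. The KO-labelled libraries held 727 CPM (710 to 745) and 480 CPM (464 to 497), against 860 CPM (832 to 888) and 784 CPM (765 to 803) in WT. The KO-labelled libraries thus differed from each other by more than counting error, and without KO replicate 2 the log2 difference was -0.28.

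Ly6e alone made up most of the Ly6 RNA. It took 88.2% and 71.6% of the summed FPKM of the 6 genes in KO replicates 1 and 2, against 74% and 75.2% in WT. The other 5 genes together stood at 37.8 and 83.4 FPKM in KO replicates 1 and 2, against 126 and 108 FPKM in WT.

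Ly6d was near the limit of detection. It was at 0.715 and 0.741 FPKM in KO replicates 1 and 2, against 1.96 and 1.77 FPKM in WT. The values look tight within each group, but they rest on 5 and 3 fragments in KO and 5 and 9 fragments in WT. The intervals overlap between groups, from 0.526 CPM (0.171 to 1.23) in KO replicate 1 to 1.2 CPM (0.39 to 2.8) in WT replicate 1. Single libraries thus do not separate the groups at this depth. Whether a difference could be detected was not tested. The log2 difference was -0.73, given with no test, since Ly6d passed the filter of 1 FPKM in 2 libraries only through WT.

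**Figure D3:**
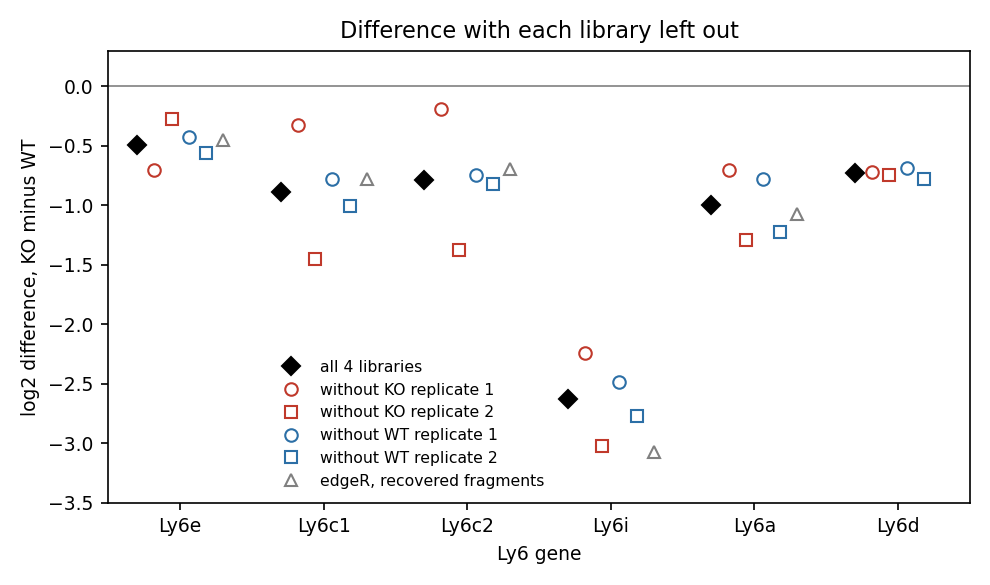
Log2 difference, KO minus WT, of each Ly6 gene with all 4 libraries (black), with a KO library left out (red), with a WT library left out (blue), and by edgeR on recovered fragments (grey, not given for Ly6d, which its filter removed). Every point lies below 0, and those of Ly6c1 and Ly6c2 come nearest to it without KO replicate 1, at -0.33 and -0.19. The red and blue points could not lie above 0, since all KO FPKM values lay under all WT values.

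FPKM per fragment was lowest in KO replicate 1, more so for short genes. Over 804 tested genes whose longest GENCODE transcript is under 1300 bases, the median FPKM per CPM, relative to the mean over libraries, was 0.882 and 1.08 in KO replicates 1 and 2, against 1.02 and 1.01 in WT. Over 9780 longer genes it was 0.95 and 1.05 in KO replicates 1 and 2, against 1.002 and 1.001 in WT. The main transcripts of the members are 744 to 1156 bases long, except that of Ly6e at 2281 bases. edgeR on the recovered fragments, which does not use FPKM, gave log2 differences of -1.08 for Ly6a, -0.78 for Ly6c1, -0.70 for Ly6c2 and -0.45 for Ly6e, all on the same side as on FPKM.

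The members lie within 349629 bases of chromosome 15, with Ly6d at one end and Ly6c2 at the other. Ly6d spans 74762056 to 74763567 and Ly6e 74955051 to 74959905. Ly6a (74994878 to 74997901) starts 11447 bases past Ly6i, and Ly6c1 (75045017 to 75048837) and Ly6c2 (75108160 to 75111684) follow. Ly6e is on the plus strand and the other members are on the minus strand. Between Ly6d and Ly6e lie 6 further genes of the table, of which 3 were listed at 0 in every library and none exceeded 1.32 FPKM. Ly6g, the granulocyte antigen next to Ly6c2, and Ly6f were also listed at 0 in all 4 libraries.

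Within 300000 bases of the members, 21 other genes are in the table, and only Them6, Lypd2, Lynx1 and Ly6k reached the filter of 1 FPKM in 2 libraries. Them6 was at 3.7 and 6.02 FPKM in KO replicates 1 and 2, against 7.6 and 5.3 FPKM in WT. Its groups overlap, and so do those of the other 3 genes. Lynx1, which modulates nicotinic acetylcholine receptors, was at 7.57 and 8.71 FPKM in KO against 10.8 and 7.59 FPKM in WT. Lypd2 was at 3.04 and 9.17 FPKM in KO against 0.651 and 3.24 FPKM in WT, on the higher side. Its log2 difference was 1.27 (SE 0.622, limma adjusted p = 0.9475). The values of Lypd2 rest on 14 and 22 fragments in KO replicates 1 and 2, against 1 and 10 in WT replicates 1 and 2. Ly6k was at 0.366 and 1.03 FPKM in KO against 0.983 and 1.32 FPKM in WT, from 3 and 5 fragments in KO and 3 and 8 in WT.

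**Figure D4:**
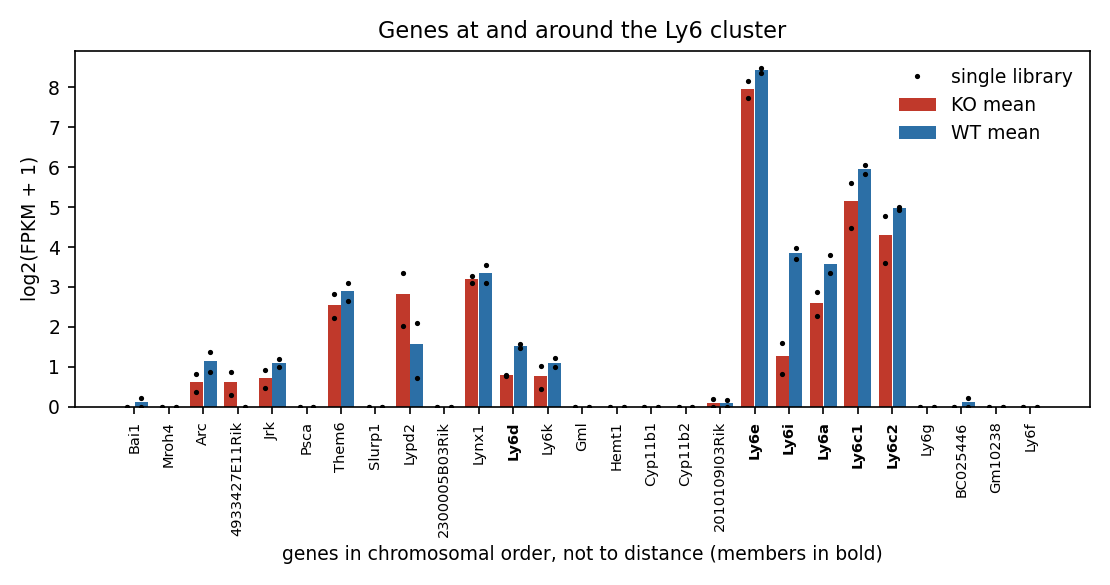
Levels as log2(FPKM + 1) of the 27 genes at and around the Ly6 cluster, in chromosomal order and not to distance, with KO means in red, WT means in blue and single libraries as dots; the 6 members are in bold. Ly6e, Ly6i, Ly6a, Ly6c1 and Ly6c2 are next to each other among the genes drawn, with KO below WT. The genes on either side of them are at or near 0. Members were taken as expressed genes of the cluster and the low KO values of Ly6i chose the set, so nothing is read from this run.

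Further genes of the same protein family lay on both sides. Of 37 further Ly6 and uPAR family genes listed, 31 were found in the table, 13 of them at 0 in every library, and 8 were tested. Of those 8, 6 had a log2 difference above 0 and 2 below, with a median of 0.34. The KO pair was wholly under the WT pair in 0 of the 8 and wholly above in 2. All tested genes gave 15.1% and 20%, and nothing is read from so few genes. None passed the limma test. Cd59a, which blocks the complement attack complex on the cell's own membrane, was at 2.19 and 7.98 FPKM in KO replicates 1 and 2, against 2.1 and 1.2 FPKM in WT. Both KO values were above WT, and KO replicate 2 carried most of that gap. Cd59a shares a locus in the table with Cd59b, so its value is uncertain. Ly6g6c was at 1.63 and 2.13 FPKM in KO against 0.963 and 1.39 FPKM in WT. Lypd6b was at 1.73 and 5.98 FPKM in KO against 2.35 and 2.86 FPKM in WT. Ly6g6e (1.05 and 6.91 FPKM in KO against 1.03 and 2.11 FPKM in WT) and Ly6g6d (7.39 and 3.22 FPKM in KO against 4.94 and 3.36 FPKM in WT) share a locus and are uncertain.

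Several Ly6 genes are known targets of interferon, whose receptors signal through JAK kinases and STAT factors. Of 14 tested receptor and signalling genes, 9 had a log2 difference above 0 and 5 below, with a median of 0.058, and 0 passed. The KO pair was wholly under the WT pair in 5 of the 14 and wholly above in 2, against 15.1% and 20% of all tested genes. Irf7 was at 2.99 and 3.17 FPKM in KO against 5.51 and 4.39 FPKM in WT, Ifnar1 at 8.46 and 11.7 FPKM in KO against 14.8 and 13.3 FPKM in WT, and Ifnar2 at 17.6 and 18.2 FPKM in KO against 22.8 and 21.9 FPKM in WT. Jak1 was at 40 and 34.6 FPKM in KO against 29.9 and 29.8 FPKM in WT. These 4 have the smallest p of the list. Ifnlr1, a receptor chain of type III interferon, at 5.17 and 4.87 FPKM in KO against 6.73 and 6.45 FPKM in WT, and Irf9, at 10 and 10.8 FPKM in KO against 10.9 and 11.7 FPKM in WT, were also wholly under WT and are named after their values were seen.

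Interferon-induced genes lay on both sides. Of 30 found, 13 were tested, 8 with a log2 difference above 0 and 5 below, with a median of 0.10 and 0 past the test. Gbp2 was at 3.14 and 1.78 FPKM in KO against 1.79 and 0.473 FPKM in WT, and Ifih1 at 13.6 and 17 FPKM in KO against 10.5 and 12.9 FPKM in WT. Psmb9 was at 10.8 and 9.3 FPKM in KO against 8.77 and 6.45 FPKM in WT. Ifi35, at 5.7 and 6.05 FPKM in KO against 8.12 and 7.11 FPKM in WT, was on the lower side.

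Genes that build and attach the GPI anchor were tested in 29 of 30 rows, with a log2 difference above 0 in 10 and below 0 in 19, a median of -0.15 and 0 past the test. Dpm3, a subunit of the enzyme that supplies mannose to the anchor, was at 7.61 and 30.9 FPKM in KO replicates 1 and 2, against 41 and 28.4 FPKM in WT, low in KO replicate 1 alone. Mppe1 was at 5.16 and 9.38 FPKM in KO against 3.91 and 5.17 FPKM in WT, Pigw at 0.522 and 1.27 FPKM in KO against 1.35 and 2.08 FPKM in WT, and Dpm1 at 8.24 and 5.44 FPKM in KO against 14.5 and 6.8 FPKM in WT.

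Markers of other cell types that carry Ly6 proteins ranged from 0 to levels above those of Ly6a. The 8 monocyte and macrophage markers found summed to 0.0975 and 0.11 FPKM in KO and 0.128 and 0.946 FPKM in WT, with Cx3cr1, Marco and Siglec5 at 0 throughout. The sum in WT replicate 2 was mostly Csf1r, at 0.817 FPKM from 30 fragments, with 0 fragments of Csf1r in the other libraries. The 7 T and NK cell markers were at 0 in every library. Endothelial markers summed to 7.01 and 11.5 FPKM in KO and 10.6 and 7.34 FPKM in WT, mostly Egfl7. Cdh5, Cldn5, Emcn and Tie1 were at 0 outside KO replicate 1. Pecam1, at 0.698 and 0.829 FPKM in KO against 0.572 and 0.261 FPKM in WT, was wholly above WT. Tek was at 0.474 and 0 FPKM in KO against 0.453 and 0.226 FPKM in WT. Kdr was at 0.173 and 0 FPKM in KO against 0.207 and 0.0175 FPKM in WT. Neutrophil markers summed to 0 and 6.68 FPKM in KO and 3.34 and 0.986 FPKM in WT, resting on Retnlg, S100a8 and S100a9 with Csf3r and Cxcr2 at 0 throughout, and B and plasma cell markers to 22.9 and 15.6 FPKM in KO and 18.7 and 13.9 FPKM in WT, mostly Cd79b. Cd79b, at 19.7 and 14.2 FPKM in KO against 17.1 and 13.2 FPKM in WT, stood above Ly6a in every library. Egfl7, at 4.7 and 10.7 FPKM in KO against 9.34 and 6.84 FPKM in WT, was in the range of Ly6a. For both genes the groups overlap, and their part in the Ly6 values was not tested.

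Club cell markers summed to 1137 and 807 FPKM in KO and 1317 and 895 FPKM in WT, and AT1 cell markers to 947 and 603 FPKM in KO and 737 and 604 FPKM in WT, mostly Ager and Aqp5. Of the 6 AT1 markers, 3 had a log2 difference above 0 and 3 below, and 0 passed. Rtkn2 was at 1.82 and 1.49 FPKM in KO against 5.37 and 4.71 FPKM in WT, a log2 difference of -1.19 (SE 0.292, limma unadjusted p = 0.00681, adjusted p = 0.9475). Pdpn was at 2.41 and 2.32 FPKM in KO against 4.25 and 4.48 FPKM in WT. Cav1 went the other way, at 9.67 and 9.32 FPKM in KO against 8.01 and 6.54 FPKM in WT. The KO pair was thus wholly under the WT pair in 2 of the 6 and wholly above in 1. All tested genes gave 15.1% and 20%. The part of these markers in the Ly6 values was not tested. Fibroblast markers summed to 37.8 and 36.2 FPKM in KO and 38.5 and 15 FPKM in WT, with 5 of 5 log2 differences above 0 and 0 past the test. Dcn, at 13.9 and 11.2 FPKM in KO against 8.73 and 3.8 FPKM in WT, was wholly above WT. Basal cell markers stayed at or below 0.0876 FPKM and ciliated cell markers at or below 0.927 FPKM in every library.

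Likeness of pattern was measured as the root mean square distance between log2(FPKM + 1) values of 2 genes, each centred on its own mean over the 4 libraries, among 10466 genes. All genes share the 4 libraries, and these distances are descriptions. Nearest to Ly6i were Hist1h3f at 0.123, Tk2 at 0.204 and Hist1h3b at 0.403. Nearest to Ly6a were Fam222a, Snapc2 and Junb, at 0.04 to 0.065. Ly6c1 was nearest to Lrcol1, Polk and Ly6c2, the last at 0.077, and Ly6c2 to Ywhaq, Arhgef39 and Snrpa, at 0.052 to 0.055. Zbtb7a, Zfp882 and RPL24 were nearest to Ly6d at 0.031 to 0.041, and Cops8, Psmg3 and Mroh1 to Ly6e at 0.018 to 0.022. Within the cluster, Ly6e was far from Ly6c1 at 0.585 and from Ly6c2 at 0.59, and Ly6i was at least 0.82 from every other member. The distance is not scaled to the size of a gene's differences, so the low KO values that chose Ly6i enter it. Nothing is read from the distances of Ly6i or from its nearest genes.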

How the data were processed

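The deposited table holds FPKM values and estimated counts for 4 libraries, 1 column of each per library. Per the submitters' processing notes the tools were cutadapt 1.9.3, HISAT2 2.0.4, Cuffdiff 2.2.1 and Cufflinks, with build mm10; the sources used here give no annotation release or settings. FPKM was computed by the authors, per the file headers. The deposited estimated counts are multiples of 1 constant per library: dividing by it made 91% to 92.6% of positive values whole within 0.05. The recovered fragments, rounded, gave CPM, exact binomial intervals and the count tests. A count of 0 allows up to 0.72 CPM in the shallowest library and 0.316 CPM in the deepest (3 fragments).

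The comparison is KO minus WT with limma-trend 3.58.1 (R 4.3.3) on log2(FPKM + 1), no covariate, for genes at 1 FPKM or more in at least 2 of 4 libraries, with Benjamini-Hochberg adjustment over all 11055 and a threshold of 0.05. The scale understates changes of low genes. Alternatives were another pseudocount, no filter, 2 scalings, a replicate block, edgeR 4.0.16, DESeq2 1.42.0 and leaving out each library. The procedure was checked on simulated data. Members and lists were chosen with earlier results of these data known. The named genes are all members, and the other family genes and neighbours that reached the filter. Added to these are up to 4 genes of each other list by smallest p. The 3 genes nearest to each member in pattern are also named, without predicted genes or repeated symbols. Further marker genes named are those at 0, those carrying a sum and the rest of the endothelial list, chosen after their values were seen. Coordinates are 1-based; those of genes are the table's (mm10), those of coding spans GENCODE M21's (GRCm38, the same assembly).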

Additional observations from a re-analysis of the deposited data

How the results depend on the processing

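All 71 member values under 12 alternatives kept their direction, KO below WT. Ly6d gave no value with edgeR's filter on low counts, so 5 of 5 members were lower there. For each member all KO FPKM values lay under all WT values. Another pseudocount, no filter, the replicate block or a left-out library could therefore not reverse the direction. Nothing is read from this count, which also includes Ly6i and Ly6d. No tested member passed the threshold under an alternative that kept all 4 libraries. A fit with a library left out has a single library in 1 group, so only log2 differences are given for the members there. Ly6i and Ly6d carry no test. The log2 difference ranged over the left-out libraries from -1.45 to -0.33 for Ly6c1, -1.38 to -0.19 for Ly6c2, -1.29 to -0.70 for Ly6a, -0.70 to -0.28 for Ly6e, -0.78 to -0.68 for Ly6d and -3.02 to -2.24 for Ly6i. With a pseudocount of 0.1 the value was -3.31 for Ly6i and -1.25 for Ly6d, which rest on few fragments.

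Across the table, limma called 0 genes. DESeq2 on recovered fragments called 7, with 279 at an unadjusted p under 0.05, edgeR called 0, with 372, and edgeR with no filter on low counts called 5; no tested member was among them. Leaving out a library gave 0 to 134 calls, the highest without KO replicate 2. The cause was not tested. Replicate numbers are not stated to pair the libraries. Same-numbered deviations correlated at 0.0257, which with 2 libraries a group cannot tell whether they are paired. With the replicate block 0 genes were called, and the limma adjusted p of the 4 tested members was 0.995. Depth limits Ly6d and Ly6i, with 3 to 9 and 7 to 55 fragments.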
